A study of Mus musculus with 78 samples.

Results

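The comparison described here is atorvastatin against vehicle in the endothelium of the mouse right common carotid artery (RCA) at 2 weeks, chosen by the treatment, artery and time in the sample labels. It holds 10 of the 78 expression arrays of the series: 5 from mice given atorvastatin (mice 6 to 10) and 5 from mice given vehicle (mice 1 to 5). Atorvastatin was given by mouth at 10 mg/kg/day from 2 days before surgery, and vehicle was given in the same way. Every mouse of both groups had the left common carotid artery (LCA) partially ligated, and the RCA is the unligated artery of the same animal, so neither group is unoperated. The labels used here give no strain, sex or age. RNA was flushed from the inside of the vessel with Qiazol, which enriches for the endothelium and does not purify it, so the arrays measure bulk RNA in which fewer cells of a type and less RNA per cell cannot be told apart. Extraction and profiling were done in 4 batches per the labels, and no label ties an array to a batch, so batch and treatment cannot be told apart. All levels below are the deposited log2 values after RMA normalization, each difference is atorvastatin minus vehicle on that log2 scale, and the number of arrays limits the precision.

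Atorvastatin is a statin, a drug that lowers the synthesis of mevalonate. Mevalonate feeds cholesterol synthesis and also the isoprenoid groups that anchor small GTPases to membranes. When sterols in a cell fall, the transcription factor SREBP-2 is processed and raises the genes of sterol synthesis and uptake, so these genes are the usual transcript readout of statin action in hepatocytes and in cultured cells. In cultured endothelial cells statins are also known to raise the flow-responsive factors KLF2 and KLF4, the nitric oxide synthase eNOS and thrombomodulin. The RCA carries undisturbed flow, a setting in which endothelium is known to express these protective genes without any drug.

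The 10 arrays had endothelial RNA at high levels and similar overall signal in both groups. The mean log2 level of 15 endothelial markers was 9.39 to 9.62 on the atorvastatin arrays and 9.33 to 9.55 on the vehicle arrays. Array medians averaged 4.694 with atorvastatin and 4.692 with vehicle, with 1 atorvastatin array, mouse 7, a little above the others at 4.739. The log2 ratio of the 3′ to the 5′ Gapdh control probe sets, a sign of RNA quality, averaged 3.96 ± 0.33 with atorvastatin and 3.81 ± 0.28 with vehicle (SD, n = 5 each; two-sided exact permutation p = 0.452, adjusted over 3 array measures p = 0.952). The levels of 11344 genes correlated between arrays of different groups (Pearson r 0.956 to 0.978) about as closely as within the atorvastatin group (0.969 to 0.977) or within the vehicle group (0.948 to 0.976), a description across genes of arrays that were normalized together.

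At 2 weeks, 1 of 11344 genes tested, Cyth3, differed between the treatments at an adjusted p under 0.05 (0.00882% of genes; limma with Benjamini-Hochberg adjustment). At an unadjusted p under 0.05 there were 612 genes (5.39%), of which 434 were higher with atorvastatin (3.83%) and 178 lower (1.57%). In 155 genes (1.37%) the 2 groups did not overlap, with every atorvastatin array above every vehicle array in 111 (0.978%) and below in 44 (0.388%). The median difference over all genes was 0.04, and the middle of the distribution, from the 5th to the 95th percentile, ran from -0.29 to 0.40. Levels were higher with atorvastatin in 59.5% of genes. The size of such shares depended on scaling: with the arrays quantile-normalized once more, 56.5% of the genes at an unadjusted p under 0.05 were higher, against 70.9% in the deposited values.

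**Figure D1:**
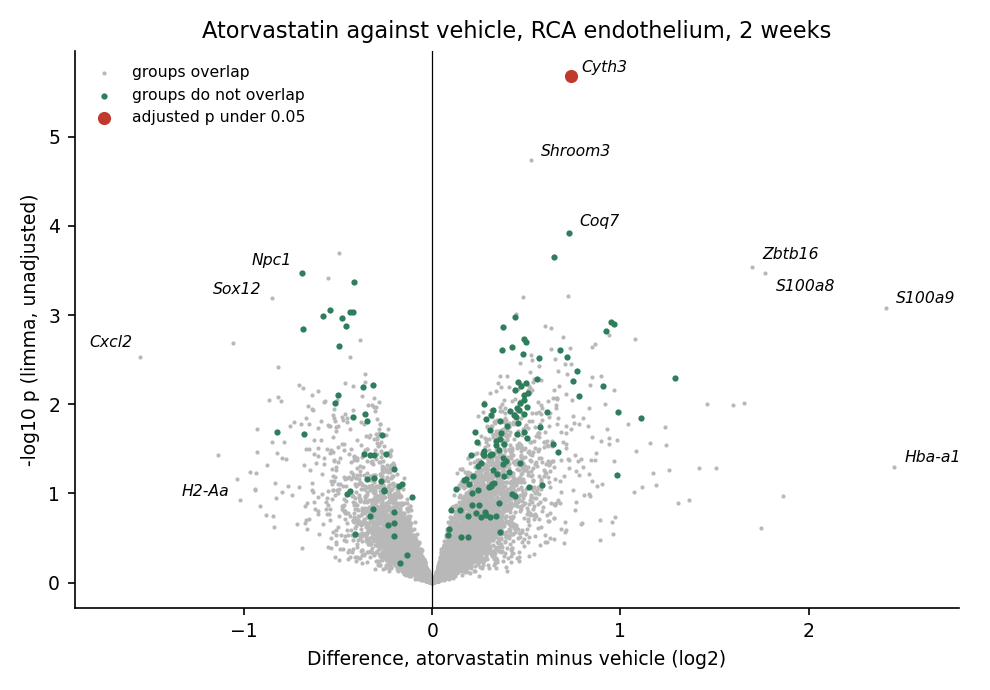
Each point is 1 of 11344 genes: the horizontal axis is the log2 difference of atorvastatin minus vehicle in the RCA at 2 weeks and the vertical axis is -log10 of the unadjusted limma p. Green points are the 155 genes whose groups do not overlap and the red point is Cyth3, the 1 gene at an adjusted p under 0.05. S100a9 and Hba-a1 lie farthest to the right, with differences of 2.41 and 2.46, and S100a9 lies the higher of the pair on the vertical axis.

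The spread between mice limits which changes could be detected. The 95% intervals take their variance from all RCA arrays of the series, at every time. They therefore do not measure the spread between the mice at 2 weeks alone. With the variance from the RCA arrays at 2 weeks alone, 801 genes had an unadjusted limma p under 0.05, against 612 in the main fit. The median standard deviation of a gene was 0.231 with atorvastatin and 0.248 with vehicle (n = 5 each), and the 95% interval of a difference reached a median of 0.387 to either side. For 10498 genes (92.5%) the interval lay within a log2 difference of 1, a 2-fold change, in both directions. For 45.05% of genes it lay within 0.5. Both shares include genes at low signal, where RMA compresses differences. A difference beyond 1 was measured in 31 genes, 26 of them higher with atorvastatin and 5 lower, and none of these passed the test.

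Cyth3 encodes cytohesin-3, an exchange factor that activates ARF GTPases at membranes rich in phosphoinositides. Its level was 9.76, 9.96, 10.40, 10.21 and 9.99 in atorvastatin mice 6 to 10, against 9.64, 9.21, 8.98, 9.34 and 9.47 in vehicle mice 1 to 5. Every atorvastatin array lay above every vehicle array, and atorvastatin mouse 6 and vehicle mouse 1 came closest. The gene rose by 0.74 (SE 0.13, 95% interval 0.475 to 1.002), a 1.67-fold rise (adjusted p = 0.0237), and it is read by a single probe set. The call depended on single mice. It was lost on leaving out atorvastatin mouse 8, 9 or 10 (adjusted p = 0.126, 0.168 and 0.0568) or vehicle mouse 2, 3 or 4 (adjusted p = 0.150, 0.0861 and 0.0826), and the difference itself stayed between 0.65 and 0.82 over all 10 such fits. It was also lost with the variance taken from the 10 arrays alone (adjusted p = 0.584) and with quantile normalization applied once more (adjusted p = 0.0782). With both arteries of the 10 mice in the fit and the mouse as a block, the adjusted p was 0.148. The leading number in the sample titles, whose meaning is not given, was shared by mice of both groups only at 7, where Cyth3 averaged 10.197 on 2 atorvastatin arrays and 8.98 on 1 vehicle array.

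The genes of next smallest p did not pass the threshold. Shroom3, which organises actin at the apical side of epithelial cells, had the second smallest p. Its levels were 10.69, 10.84, 10.87, 10.76 and 10.78 with atorvastatin and 10.34, 9.91, 10.22, 10.17 and 10.69 with vehicle. The atorvastatin mice spanned a narrow range (SD 0.07), while vehicle mouse 5 reached the lowest atorvastatin mouse, so the groups met (difference 0.52, SE 0.11, adjusted p = 0.105). Without vehicle mouse 5, Shroom3 passed the test, with a difference of 0.63 and an adjusted p of 0.00397.

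Coq7, a hydroxylase of ubiquinone synthesis, whose isoprenoid tail is a product of the mevalonate pathway, was at 6.21, 5.92, 6.17, 6.46 and 6.30 with atorvastatin and at 5.17, 5.69, 5.43, 5.44 and 5.69 with vehicle. The groups did not overlap, and the difference was 0.73 (SE 0.17, adjusted p = 0.45). Baiap2, which couples Rac and CDC42 to actin, was at 5.01 to 5.64 with atorvastatin and 4.10 to 4.84 with vehicle (difference 0.65, adjusted p = 0.478). Tnfrsf21, the death receptor DR6, was at 8.02 to 8.85 with atorvastatin and 7.03 to 7.91 with vehicle (difference 0.95, adjusted p = 0.574). Sec23ip, a protein of exit sites from the endoplasmic reticulum, was at 8.21 to 8.46 with atorvastatin and 7.73 to 8.07 with vehicle (difference 0.44, adjusted p = 0.574). These 3 genes also had groups that did not overlap, each with a gap smaller than its own range within a group.

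In 4 further genes among the 12 with the smallest p on the higher side the groups overlapped slightly. Pex11a, which divides peroxisomes, differed by 0.72 (adjusted p = 0.569), and Pmpca, the alpha subunit of the mitochondrial processing peptidase, by 0.48 (adjusted p = 0.569). Clasrp, a protein that binds splicing kinases, differed by 0.44 (adjusted p = 0.574). Zbtb16, a transcriptional repressor known as PLZF, had the largest separation of group means among them, at 8.70, 9.89, 10.09, 10.21 and 10.01 with atorvastatin and 9.05, 6.55, 8.42, 8.0 and 8.37 with vehicle. Atorvastatin mouse 6 lay below vehicle mouse 1, and the other 4 atorvastatin mice lay above all vehicle mice (difference 1.70, SE 0.42, adjusted p = 0.478). S100a8 and S100a9, also among the 12, are described with the markers of blood cells. Outside them, Igkj1, an immunoglobulin kappa joining segment, was named after its values were seen, because it alone passed when vehicle mouse 3 was left out (difference 1.51, adjusted p = 0.0207). With all mice it was at 3.72 to 6.16 with atorvastatin and 2.73 to 5.07 with vehicle (difference 1.08, adjusted p = 0.635). Without atorvastatin mouse 6, which held the highest level, the difference was 0.65 (adjusted p = 0.73), and with the neutrophil marker mean as a covariate it was 0.63.

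On the lower side the smallest p belonged to the probe set that the platform annotation pairs with Mirlet7b, although which transcript it reads is not given in the sources used here (4.11 to 4.54 with atorvastatin, 4.50 to 5.22 with vehicle, difference -0.49, adjusted p = 0.478). Npc1, which exports cholesterol from the lysosome, was at 6.61, 6.43, 6.75, 6.25 and 6.45 with atorvastatin and at 7.32, 7.33, 7.10, 7.17 and 7.04 with vehicle. All 5 atorvastatin arrays lay below all 5 vehicle arrays, and the difference of -0.69 (SE 0.17, 0.619 times the vehicle level) did not pass the test (adjusted p = 0.478). Sox12, a SoxC transcription factor gene, was at 5.89 to 6.03 in 4 atorvastatin mice and at 6.92 in atorvastatin mouse 7, against 6.63 to 7.42 with vehicle (difference -0.85, adjusted p = 0.569).

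The other 9 of the 12 lowest p on this side had differences from -0.38 to -0.69 and adjusted p from 0.48 to 0.635. Their groups did not overlap for Fbxo41 (-0.42), the homeobox gene Pitx1 (-0.42), Entpd4, a nucleotidase of the secretory pathway (-0.44), Syn1, the neuronal synapsin I (-0.58), Nme4, a mitochondrial nucleoside diphosphate kinase (-0.48), the Golgi protein gene Tmem87a (-0.46) and Tspyl2 (-0.69). They overlapped for Kptn (-0.56) and the germ cell factor gene Sohlh2 (-0.38). Several of these lay at low signal, where RMA compresses differences: Nme4 was at 3.42 to 3.65 with atorvastatin and 3.72 to 4.28 with vehicle, under the array medians.

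**Figure D2:**
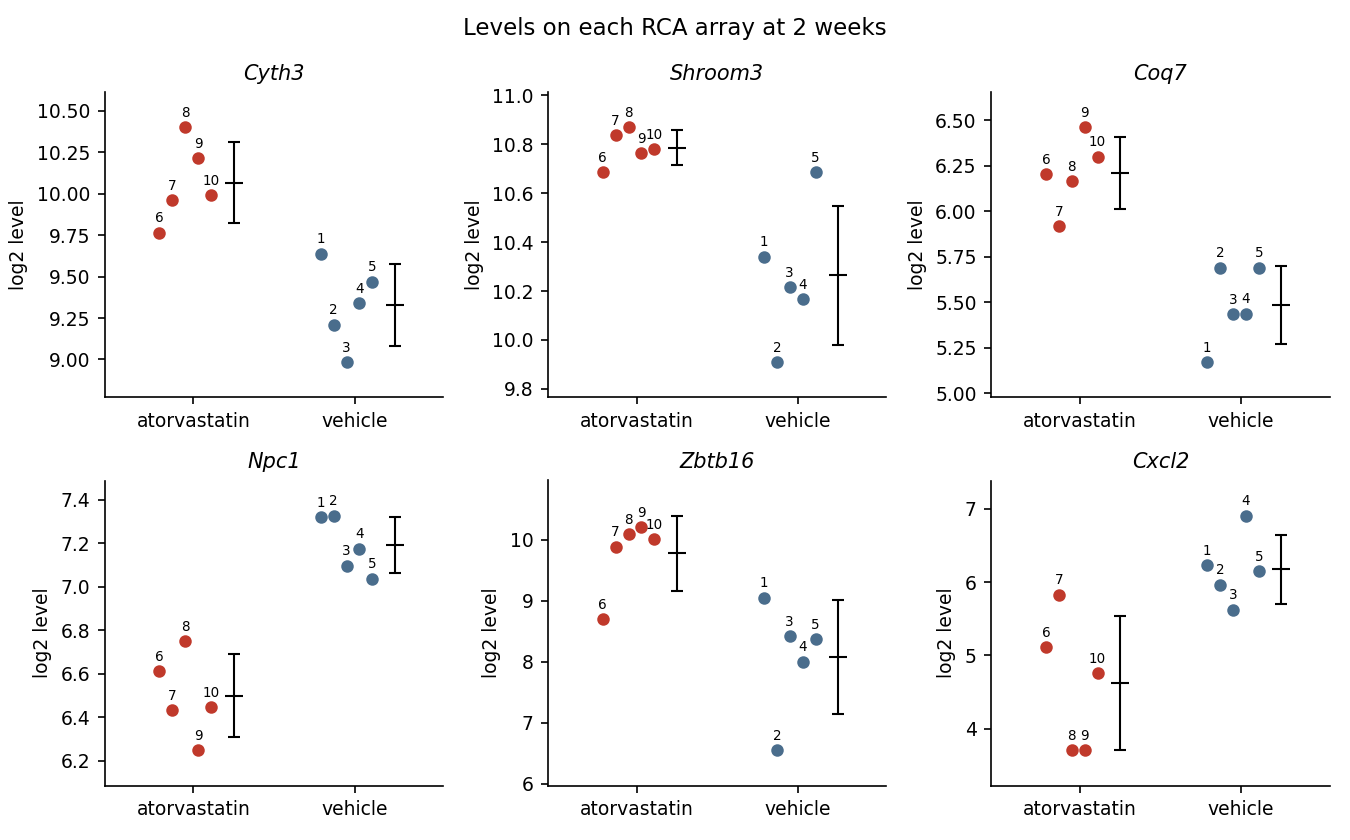
Each point is the log2 level on 1 RCA array at 2 weeks, atorvastatin in red and vehicle in blue, with the mouse number above it and the mean and SD (n = 5) as a black bar. Cyth3, Coq7 and Npc1 have groups that do not overlap. Shroom3 meets at vehicle mouse 5, Zbtb16 overlaps at atorvastatin mouse 6 and Cxcl2 at atorvastatin mouse 7.

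Genes of sterol synthesis and uptake were the first group of interest for a statin, and none of them passed the test. Of 28 listed, 22 could be named and 18 were high enough to test. Of these, 9 were higher and 9 lower with atorvastatin, 1 was higher at an unadjusted p under 0.05 and 0 were lower, and the median difference was -0.01, against 0.04 over all genes. The mean level of the list was 6.005 to 6.18 on the atorvastatin arrays and 5.95 to 6.18 on the vehicle arrays. The smallest adjusted p of the list was 0.88. In 16 of the 18 genes the 95% interval lay within a 2-fold change in both directions, and the widest bounds were -1.03 and 0.88.

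Insig1, the sterol-sensing protein that holds SREBP in the endoplasmic reticulum and is itself an SREBP target, was that 1 gene. It was at 8.89, 8.98, 9.26, 9.01 and 9.07 with atorvastatin and at 9.02, 8.83, 8.85, 8.48 and 8.62 with vehicle. Vehicle mouse 1 lay within the atorvastatin range and the other 4 lay below it. The difference was 0.28 (SE 0.13, 95% interval 0.03 to 0.54, adjusted p = 0.88).

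Among the enzymes, in pathway order, Mvk, mevalonate kinase, differed by -0.13 (95% interval -0.45 to 0.18) and Mvd, mevalonate diphosphate decarboxylase, by -0.08 (-0.44 to 0.27). Idi1, the isopentenyl diphosphate isomerase, was at 7.85, 8.24, 8.07, 8.01 and 8.04 with atorvastatin and at 7.26, 8.15, 7.63, 7.90 and 7.40 with vehicle. Vehicle mice 2 and 4 fell inside the atorvastatin range, and the difference was 0.37 (-0.06 to 0.81, adjusted p = 0.989). Fdft1, squalene synthase, differed by 0.32 (-0.23 to 0.88).

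Sqle, squalene epoxidase, was at 3.18 to 3.66 with atorvastatin and at 3.16 to 4.55 with vehicle, low on every array, with vehicle mouse 1 at 4.55 and the other 4 vehicle mice at 3.40 or below (difference -0.11, -0.80 to 0.58). Of the later demethylation and reduction steps, Cyp51 differed by 0.38 (-0.09 to 0.85), Msmo1 by 0.29 (-0.31 to 0.88) and Nsdhl by 0.24 (-0.32 to 0.81). Sc5d, the sterol desaturase, differed by -0.48 (-1.02 to 0.07), and Srebf2, the gene of SREBP-2 itself, by -0.40 (-1.03 to 0.24). The intervals of these genes, Insig1 apart, include 0, and none passed the test. Hmgcs1, which makes HMG-CoA, was at 2.23 to 3.28 with atorvastatin and 2.59 to 2.85 with vehicle, near the floor of the array, and was too low to be tested.

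The neighbouring lipid lists also had 0 genes past the threshold. For fatty acid synthesis, 10 of 12 tested genes were higher with atorvastatin and 2 lower, against 59.5% of all genes higher. The median was 0.14. Acly, which makes cytosolic acetyl-CoA, was the 1 gene at an unadjusted p under 0.05, at 7.53 to 8.21 with atorvastatin and 6.92 to 7.57 with vehicle (difference 0.57, adjusted p = 0.79). Acss2, another source of acetyl-CoA, differed by 0.58 (-0.17 to 1.32) and Acaca, acetyl-CoA carboxylase, by 0.33 (-0.01 to 0.67). The mean of the list was highest in atorvastatin mouse 8 at 7.95 and in vehicle mouse 3 at 7.76. These mice also had the highest adipocyte marker means of their groups, 8.04 and 7.63, and the part of fat RNA in these differences was not tested. Of 8 genes of cholesterol efflux, 3 were higher and 5 lower, with a median of -0.07, and Npc1 was the 1 gene whose groups did not overlap.

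Genes of isoprenoid-dependent GTPases and their regulators stayed close between treatments, a list that also holds genes of the enzymes that attach the isoprenoid groups. Of 16 tested, 5 were higher and 11 lower, with a median of -0.04, and 0 reached an unadjusted p under 0.05. Rhob, a short-lived small GTPase that statins induce in cultured cells, was at 11.46, 11.13, 11.51, 11.33 and 11.48 with atorvastatin and at 11.43, 11.59, 11.72, 11.60 and 11.40 with vehicle. The groups overlapped, and the difference was -0.16 (95% interval -0.44 to 0.11). Rhoa differed by -0.09 (-0.27 to 0.09), Rac1 by -0.03 (-0.21 to 0.16) and Cdc42 by -0.06 (-0.29 to 0.18).

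Of 19 tested genes tied to laminar flow and to statins in endothelium, 10 were higher and 9 lower, the median difference was 0.00, and 0 reached an unadjusted p under 0.05. Klf2 was at 10.46, 10.31, 10.30, 10.22 and 10.25 with atorvastatin and at 10.15, 10.44, 10.97, 10.52 and 10.20 with vehicle. The atorvastatin mice were closer together than the vehicle mice and lay inside their range (difference -0.15, 95% interval -0.47 to 0.17). Klf4 was at 11.19 to 11.46 with atorvastatin and 10.997 to 11.48 with vehicle (difference 0.05, -0.17 to 0.28).

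Nos3, which encodes eNOS, was at 8.19, 8.57, 7.93, 7.92 and 8.35 with atorvastatin and at 8.16, 8.29, 7.63, 8.12 and 8.50 with vehicle (difference 0.05, 95% interval -0.32 to 0.42). The groups overlapped over nearly their whole range. Thbd, thrombomodulin, was at 10.77 to 10.88 with atorvastatin and 10.80 to 10.97 with vehicle (difference -0.07, -0.29 to 0.14). Klk10, a flow-responsive kallikrein gene, was at 10.13 to 10.61 with atorvastatin and 9.98 to 10.61 with vehicle (difference 0.12, -0.21 to 0.44). Nqo1, a target of the oxidative stress factor NRF2, differed by 0.21 (-0.14 to 0.57). For the 11 genes named for these pathways whatever their result, all intervals lay within a 2-fold change, with outer bounds of -0.80 and 0.81. Sqle, which is among them, lay at low signal, where such an interval does not bound the real change.

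Among 17 genes of endothelial inflammation and adhesion, 7 were higher and 10 lower, with a median of -0.02. Vcam1 and Icam1, the adhesion molecules that bind leukocytes, differed by 0.06 (95% interval -0.38 to 0.51) and -0.02 (-0.27 to 0.23). At an unadjusted p under 0.05, 3 genes were lower and 0 higher, against 1.57% and 3.83% of all genes. The 3 were the chemokine genes Cxcl2 and Cxcl1 and the NF-kB feedback inhibitor gene Tnfaip3. Cxcl2 was at 5.11, 5.83, 3.71, 3.71 and 4.76 with atorvastatin and at 6.23, 5.96, 5.62, 6.91 and 6.14 with vehicle. Atorvastatin mouse 7 lay above vehicle mouse 3 and all others were separated (difference -1.55, SE 0.49, adjusted p = 0.681). Cxcl1 was at 8.05 to 9.15 with atorvastatin and 9.12 to 9.74 with vehicle (difference -0.71). Tnfaip3 was at 6.88 to 7.49 with atorvastatin and 7.47 to 7.88 with vehicle (difference -0.52). The adjusted p of both was 0.79. Among 18 immediate early genes, 13 were lower and 5 higher, against 59.5% of all genes higher. Their median was -0.10, and Jun differed by -0.41 (adjusted p = 0.906).

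**Figure D3:**
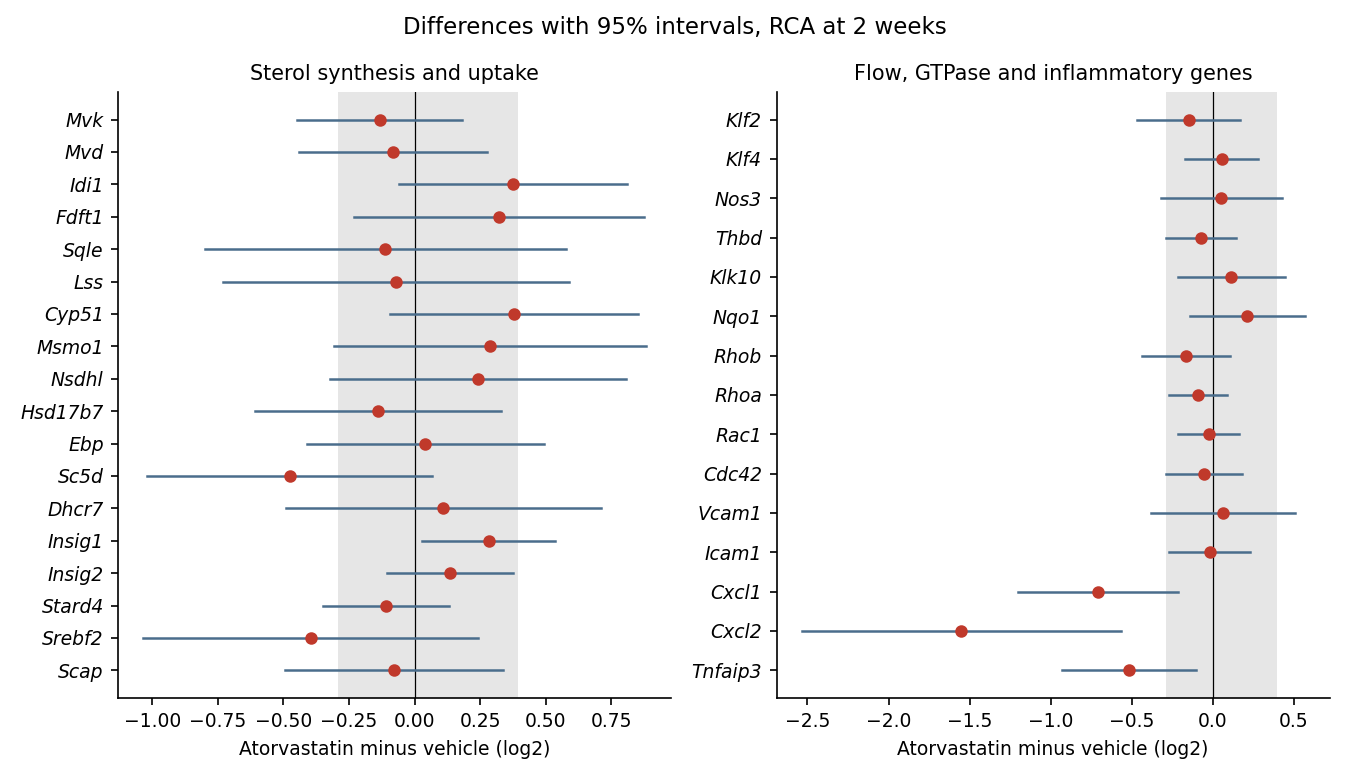
Points are log2 differences of atorvastatin minus vehicle in the RCA at 2 weeks and lines are 95% intervals from the limma fit. The left panel shows the 18 tested genes of sterol synthesis and uptake, the right panel genes of flow response, GTPases and inflammation, and the grey band spans the 5th to the 95th percentile of all 11344 genes (-0.29 to 0.40). Most of these genes lie inside the band, and Cxcl2 lies farthest outside it at -1.55.

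Of 15 genes known to respond to glucocorticoids, 11 were higher and 4 lower with atorvastatin, against 59.5% of all genes higher. The median was 0.18, the highest of the 25 pathway lists. The list had 0 genes past the adjusted threshold. At an unadjusted p under 0.05, 4 were higher, against 3.83% of all genes. Besides Zbtb16, these were Klf15, Mt1 and Fkbp5. Fkbp5, a co-chaperone of the glucocorticoid receptor, was at 5.65, 7.47, 7.90, 7.83 and 7.44 with atorvastatin and at 6.90, 5.72, 6.61, 6.53 and 5.83 with vehicle. Atorvastatin mouse 6 was the lowest of all 10, and the other 4 were above every vehicle mouse, as they were for Zbtb16 (difference 0.94, SE 0.40, adjusted p = 0.828).

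Klf15, a transcription factor gene, was at 5.79 to 7.39 with atorvastatin and 4.92 to 6.38 with vehicle (difference 0.90). Mt1, metallothionein-1, was at 8.96 to 10.06 with atorvastatin and 8.402 to 9.03 with vehicle (difference 0.74). The adjusted p of both was 0.79. Klf15, Fkbp5 and Mt1 were highest in atorvastatin mouse 8, which also had the highest adipocyte markers of its group, and the part of fat RNA in these values was not tested.

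Antigen presentation had the lowest median of the pathway lists, -0.34 over 10 tested genes. Of these, 1 was higher and 9 lower, against 59.5% of all genes higher, with 0 at an unadjusted p under 0.05. H2-D1, a class I heavy chain gene, was at 10.86 to 11.15 with atorvastatin and 11.19 to 11.40 with vehicle and did not overlap (difference -0.26, adjusted p = 0.993). H2-Aa, a class II chain of antigen-presenting cells, differed by -1.02 (SE 0.64), and its levels ran from 5.07 in atorvastatin mouse 9 to 9.41 in vehicle mouse 3. Without atorvastatin mouse 9 the difference of H2-Aa was -0.51. The interferon list had a median of -0.0012 over 14 genes, with Gbp2 lower at an unadjusted p under 0.05 (-0.61, adjusted p = 0.906).

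The other pathway lists gave medians between -0.10 and 0.16. Cell cycle genes had 19 of 23 higher, against 59.5% of all genes. Their median was 0.16, and 0 reached an unadjusted p under 0.05. The mean of the list was highest in atorvastatin mice 8 and 9, at 5.82 and 5.99, and among vehicle mice in mouse 2, at 5.74. The mean of 4 thymus and lymph node markers was 6.31, 5.96 and 6.26 in these mice, and their part in the cell cycle values was not tested. TGF-beta genes had 13 of 17 higher, against the same 59.5%, and a median of 0.14. The inhibitory Smad7 was the 1 gene at an unadjusted p under 0.05 (0.39). Other genes that reached that level without passing the adjusted threshold included Notch4 of the Notch list (0.39), Tfpi, an inhibitor of tissue factor (0.56), Col18a1, the source of endostatin (0.49), and Herpud1 of the unfolded protein response (0.39). Of the mitochondrial list they were Cox8b and Cox7a1 (0.90), and of the fatty acid oxidation list the fatty acid carrier gene Fabp3 (0.34). Over all 44 lists, 472 of 624 genes were tested, and 0 of them passed at an adjusted p under 0.05.

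Large differences between group means were found in genes that mark cells other than endothelium, many of which varied widely between mice of a group. Zbtb16 (1.70) and Cxcl2 (-1.55), described above, also had large differences. Red cell genes varied in both groups, and none passed the test. Hba-a1, an alpha globin gene, was at 12.72, 9.94, 12.28, 11.59 and 7.54 with atorvastatin and at 3.91, 8.49, 10.16, 7.12 and 12.10 with vehicle. Atorvastatin mice 6 and 8 lay above every vehicle mouse, vehicle mice 1 and 4 lay below every atorvastatin mouse, and the other 6 overlapped (difference 2.46, SE 1.21, adjusted p = 0.922). Without vehicle mouse 1 the difference was 1.34. Alas2, which starts haem synthesis in red cells, differed by 1.66 and Slc4a1, the red cell anion exchanger, by 0.96, both at an adjusted p of 0.79. Slc4a1 was above the vehicle range in atorvastatin mice 6 and 9 and below it in atorvastatin mouse 10, and its difference was 0.44 without atorvastatin mouse 9. All 3 tested erythroid markers of 7 were higher, and their mean per array was 5.30 to 9.26 with atorvastatin and 4.08 to 8.31 with vehicle.

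S100a8 and S100a9 encode the calprotectin subunits that are abundant in neutrophils. S100a9 was at 9.29, 8.57, 5.39, 9.53 and 5.45 with atorvastatin and at 4.56, 4.40, 6.70, 4.77 and 5.73 with vehicle. Atorvastatin mice 6, 7 and 9 were high, and mice 8 and 10 were within the vehicle range (difference 2.41, SE 0.66, adjusted p = 0.574). S100a8 had the same 3 mice high, at 6.05, 6.14 and 7.05, against 2.85 to 4.72 with vehicle (difference 1.77, adjusted p = 0.478). Of the 6 tested neutrophil markers, 3 were higher and 3 lower with a median of 0.11, so of the 4 other than these, 1 was higher and 3 were lower. The mean of the 6 per array was 3.90 to 5.10 with atorvastatin and 3.59 to 4.39 with vehicle. For Cyth3, the erythroid, the neutrophil or the skeletal muscle marker mean was added to the fit as a covariate, chosen after seeing the data. The treatment difference of Cyth3 was then 0.76, 0.77 and 0.71, with adjusted p of 0.121, 0.268 and 0.109. These fits give an adjusted treatment difference and not the relation of Cyth3 to a marker mean. Whether Cyth3 moved with these cells was not tested.

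Skeletal muscle markers were high on 1 array. The mean of 4 tested muscle markers was 9.24 in atorvastatin mouse 9, against 4.59 to 4.95 in the other 4 atorvastatin mice and 4.63 to 5.04 in the vehicle mice. Tnnc2, fast troponin C, was at 11.64 there and at 4.24 to 4.51 in the other atorvastatin mice. Without that mouse the difference of Tnnc2 was -0.48, in place of 0.97 with it. Ucp1, the uncoupling protein of brown fat, was at 7.02 in atorvastatin mouse 7 and at 3.31 to 4.001 on the other 9 arrays. Cox8b, a cytochrome oxidase subunit of brown fat and striated muscle, was at 4.40, 7.26, 8.04, 7.83 and 6.03 with atorvastatin and at 4.76, 5.35, 6.97, 4.59 and 4.57 with vehicle (difference 1.46, adjusted p = 0.79). The mitochondrial list owed its highest member to this gene, while its median was 0.05.

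Fat, connective tissue and macrophage RNA varied from mouse to mouse in both groups. Adipoq, the adipocyte hormone adiponectin, was at 2.44, 5.71, 8.85, 3.44 and 5.48 with atorvastatin and at 2.44, 5.92, 8.86, 4.24 and 2.47 with vehicle. Each group ran from 2.44 to over 8, and the difference was 0.40 (95% interval -2.03 to 2.83). Lyz2, a lysozyme gene of macrophages and neutrophils, was at 6.61 to 8.75 with atorvastatin and at 2.44, 7.75, 9.51, 5.89 and 6.90 with vehicle, so that vehicle mice 1 and 3 held the lowest and the highest level of all (difference 1.37, SE 0.86). The difference of Lyz2 was 0.35 without vehicle mouse 1 and 2.12 without vehicle mouse 3. Lum, a fibroblast proteoglycan gene, was at 3.53 to 4.80 with atorvastatin and 3.38 to 7.10 with vehicle (difference -0.94, 95% interval -2.04 to 0.16), and its difference was -0.49 without vehicle mouse 3 and -1.42 without vehicle mouse 1. The fibroblast mean was 6.52 to 7.45 with atorvastatin and 5.28 to 8.88 with vehicle, and the macrophage mean was 4.17 to 5.07 with atorvastatin and 3.44 to 6.08 with vehicle.

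The within-group spread followed single mice. A standard deviation over 1 was found for 83 genes with atorvastatin and 188 with vehicle, 45 of them in both groups. Of the 83, atorvastatin mouse 8 held the highest level in 45. Of the 188, vehicle mouse 3 held the highest level in 146 (77.7%) and vehicle mouse 1 the lowest in 125 (66.5%). Car3, a carbonic anhydrase of fat and muscle, showed the pattern in both groups, at 5.35, 10.04, 11.77, 10.75 and 10.10 with atorvastatin and at 4.38, 9.58, 11.74, 8.06 and 5.50 with vehicle. Rag1, the recombinase of developing lymphocytes, was at 7.70 and 7.25 in atorvastatin mice 8 and 9 and at 3.18 to 3.22 in the others, against 7.48 and 6.30 in vehicle mice 2 and 3 and 3.20 to 3.72 in the others. Each group thus held 2 arrays with this signal.

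The mean of the endothelial markers varied little between mice, while single markers could vary more, such as Nos3 at 7.63 to 8.57. Pecam1, which encodes CD31, was at 11.51 to 11.77 with atorvastatin and 11.47 to 11.70 with vehicle (difference 0.00, 95% interval -0.22 to 0.23). Cdh5, VE-cadherin, differed by -0.09 (-0.40 to 0.21) and Vwf, von Willebrand factor, by 0.00 (-0.19 to 0.20). Of the 15 endothelial markers, 10 were higher and 5 lower, the median was 0.03, and 0 reached an unadjusted p under 0.05. The widest bounds of their 95% intervals were -0.70 and 0.78. The 8 tested smooth muscle markers had a median of -0.05, with a mean level of 6.19 to 6.83 with atorvastatin and 5.92 to 6.92 with vehicle. Acta2, smooth muscle actin, was at 9.28 to 10.81 with atorvastatin and 7.72 to 10.09 with vehicle, vehicle mouse 1 being the lowest (difference 0.43, 95% interval -0.76 to 1.61). No B cell or thyroid marker was high enough to be tested.

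**Figure D4:**
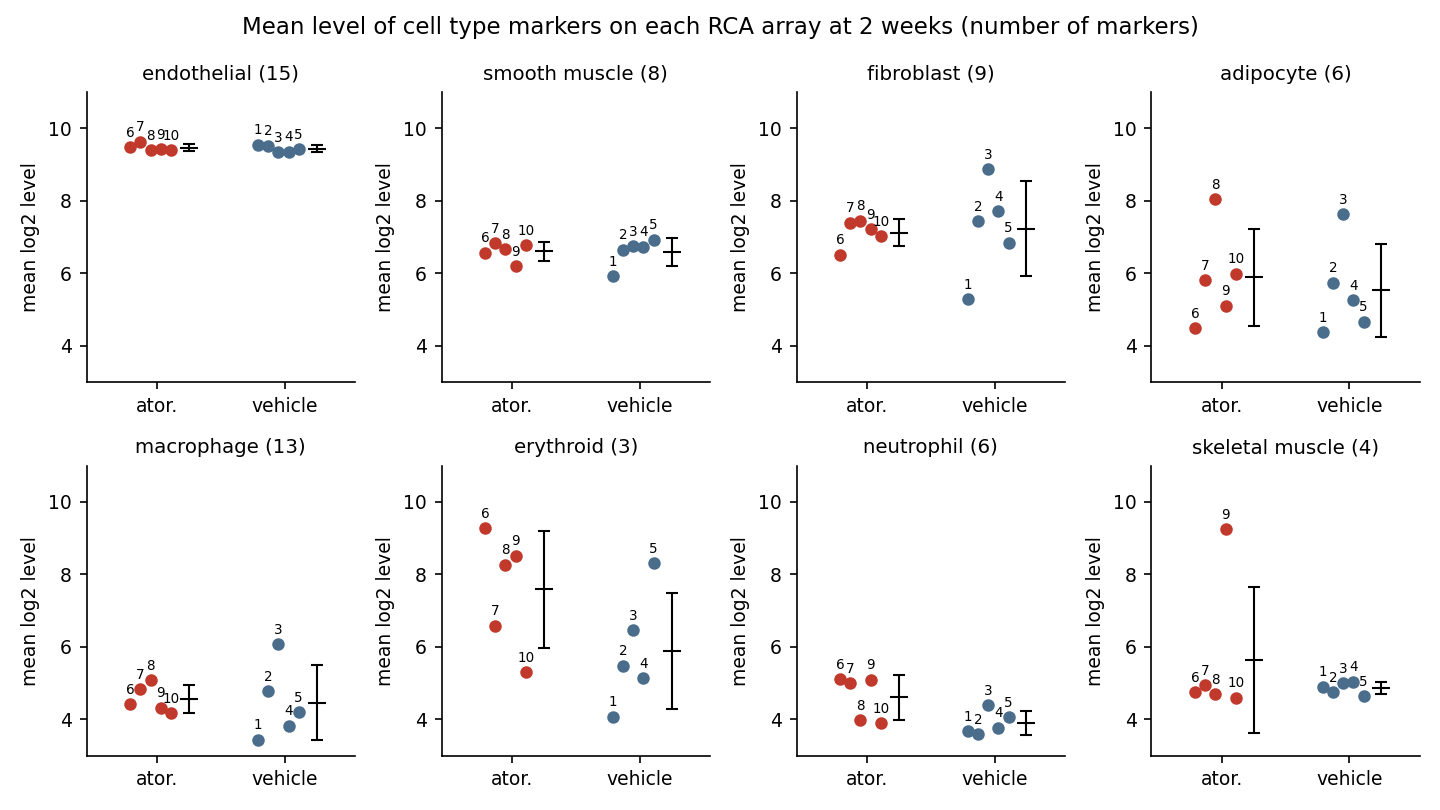
Each point is the mean log2 level of the tested markers of a cell type on 1 RCA array at 2 weeks, atorvastatin in red and vehicle in blue, with mouse numbers above the points and the group mean and SD (n = 5) in black. The endothelial mean stays between 9.33 and 9.62 on all 10 arrays. Fat, macrophage and fibroblast means are highest in vehicle mouse 3 among vehicle mice, and the muscle mean is high in atorvastatin mouse 9 alone.

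Whether the control artery responded differently from the ligated artery of the same mice was tested directly, as the atorvastatin effect in the RCA minus that in the LCA. Of 11344 genes, 2 passed (0.0176%), and 495 (4.36%) had an unadjusted p under 0.05. For both, the larger effect was in the LCA. All RCA levels of both genes at 2 weeks lay under the array medians (4.674 to 4.739). They were high enough to be tested only through arrays other than these. A fall of the size measured in the LCA could not have shown in the RCA. For these genes the test therefore cannot tell a different response from a low signal. Dnase1l3, a secreted DNase, was at 3.42 to 3.94 with atorvastatin and 3.22 to 3.78 with vehicle in the RCA (difference 0.17), near the low end of the arrays. In the LCA it was at 4.995, 5.13, 4.59, 3.76 and 4.03 with atorvastatin and at 5.35, 6.95, 7.58, 5.85 and 5.54 with vehicle (difference -1.75). The effects differed by 1.93 (SE 0.32, adjusted p = 0.00564).

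Mmp13, a collagenase, was at 2.82 to 3.69 with atorvastatin and 2.76 to 3.02 with vehicle in the RCA (difference 0.24). In the LCA it was at 6.23, 4.95, 6.09, 5.12 and 4.91 with atorvastatin and at 6.33, 8.01, 6.83, 7.34 and 6.63 with vehicle (difference -1.57). The effects differed by 1.80 (SE 0.30, adjusted p = 0.00564). Atorvastatin against vehicle within the LCA at 2 weeks had 0 genes (0.0%) at an adjusted p under 0.05 by limma and 313 (2.76%) at an unadjusted p under 0.05, so neither gene passed there (adjusted p = 0.287 for Dnase1l3 and 0.101 for Mmp13). The 3 genes that followed, Plek2 (1.34), Apol7c (1.65) and Tspan33 (1.64), had an adjusted p of 0.0697. In the RCA, Apol7c was at 3.045 to 3.11 with atorvastatin and 3.045 to 3.37 with vehicle. It lay under the array medians, so the limit of low signal holds for it as well. Tspan33 was at 4.26 to 4.89 with vehicle in the RCA, near those medians.

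The count of this test moved with single mice. It was 12 without vehicle mouse 1, 9 without atorvastatin mouse 6, 7 without vehicle mouse 5, 5 without atorvastatin mouse 8 or without vehicle mouse 2, and 1 without atorvastatin mouse 7, when Mmp13 no longer passed. With only the 10 mice at 2 weeks in the fit it was 0. Of the 24 genes named for the RCA, 0 passed it. In the LCA, 10 of the 24 had a difference of the same sign, and the share of all genes with the same sign in both arteries was not computed. Of these 10, 2 reached an unadjusted p under 0.05 in the LCA, against 2.76% of all genes. Cyth3, with an LCA difference of 0.11 (SE 0.14), had effects that differed by 0.63 (SE 0.17, adjusted p = 0.334). Zbtb16 was higher with atorvastatin in the LCA as well, at 7.64 to 9.72 against 5.47 to 7.90 with vehicle (difference 2.05, SE 0.51, adjusted p = 0.287), and its effects differed by -0.35 (SE 0.48).

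**Figure D5:**
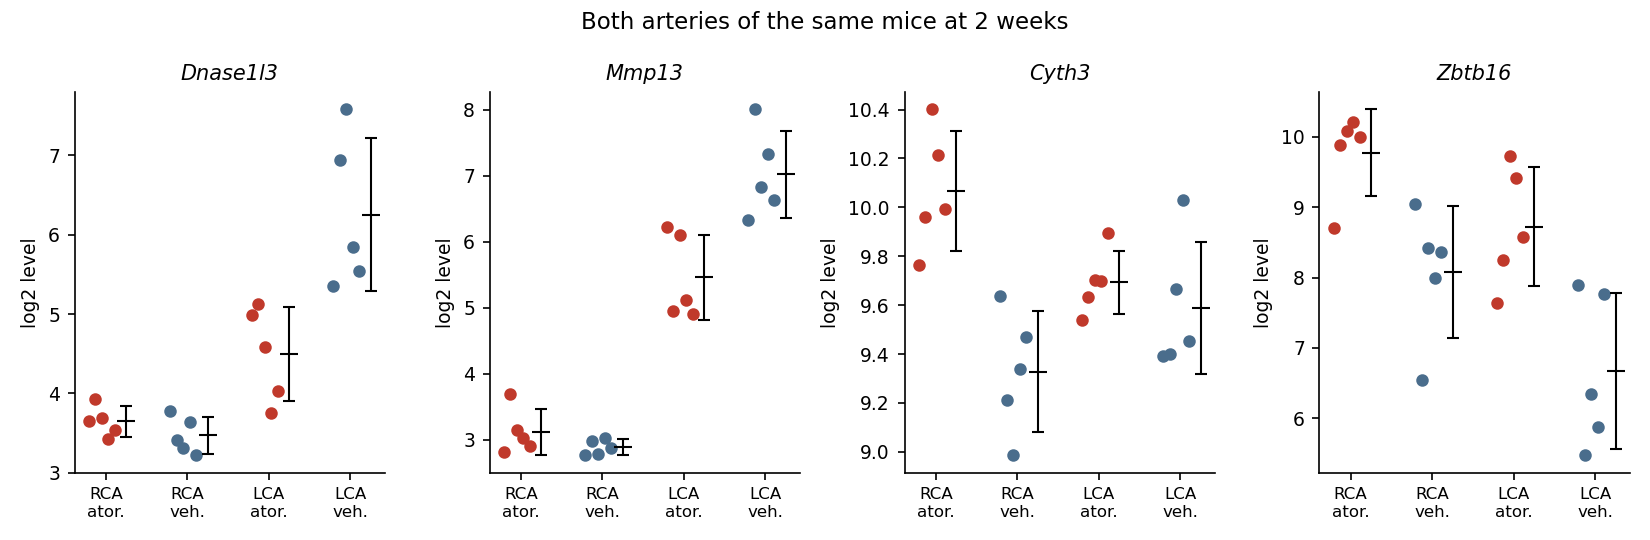
Points are log2 levels on single arrays at 2 weeks in the RCA (left pair of groups) and the LCA (right pair) of the same 10 mice, atorvastatin in red and vehicle in blue, with mean and SD (n = 5). Dnase1l3 and Mmp13 are low in both RCA groups and differ between treatments in the LCA, by -1.75 and -1.57. Cyth3 is separated in the RCA and overlaps in the LCA, and Zbtb16 is higher with atorvastatin in both arteries with overlapping points.

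The RCA was also sampled at 12 h, 24 h and 48 h after surgery, and the 2-week effect was tested against the mean of the 3 earlier effects. At these times 5 genes (0.0441%), 0 and 0 passed for atorvastatin against vehicle at an adjusted p under 0.05, and 1274 (11.2%), 452 (3.98%) and 1211 (10.7%) had an unadjusted p under 0.05. The difference between 2 weeks and earlier had 0 genes past the threshold by limma and 1100 (9.7%) at an unadjusted p under 0.05. Without vehicle mouse 5 the count was 1, Shroom3. The 5 genes of smallest p all had an adjusted p of 0.166, and as the test uses the same 2-week arrays, small p there and in the main comparison are not independent.

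Cyth3 differed between treatments by 0.11, 0.01 and 0.06 at 12 h, 24 h and 48 h (SE 0.13 to 0.14), against 0.74 at 2 weeks, so the 2-week difference exceeded the earlier mean by 0.68 (SE 0.15). Shroom3 exceeded it by 0.54 (SE 0.12) and Cdadc1, a deaminase-like gene, by 0.55 (SE 0.12). Npc1 differed by 0.37, -0.10 and 0.42 at the earlier times and by -0.69 at 2 weeks, a difference from the earlier mean of -0.93 (SE 0.20). Loxl4, a matrix crosslinking oxidase gene, differed by 1.12 at 12 h (adjusted p = 0.0693), 0.23 at 24 h and 0.40 at 48 h and by -0.69 at 2 weeks, which is -1.28 from the earlier mean (SE 0.28). Zbtb16 differed by 0.49, 0.54, 1.99 and 1.70 at 12 h, 24 h, 48 h and 2 weeks, positive each time and past the adjusted threshold at none of them.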

How the data were processed

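Per the labels' protocols, endothelium-enriched RNA was labelled with biotin and hybridised to 78 Affymetrix arrays, 1 per artery of 39 mice. The values are the authors' deposited log2 levels, and the submitters' processing notes name RMA as the normalization. Neither the chip definition nor a software version is named there. RMA brings arrays close to 1 distribution, so a shift of most genes could be hidden, and it compresses low signals. The deposited values did not share 1 distribution exactly, with array medians from 4.589 to 4.773 over the series.

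Of 45118 probe sets, 28898 carried 1 gene symbol in the platform annotation. A gene was represented by its probe set of highest mean, and 11344 of 17097 genes exceeded the median of the array on 4 or more arrays and were tested. In R 4.3.3, limma 3.58.1 with statmod 1.5.0 was run on all 39 RCA arrays in 8 groups, or to differences between arteries of each mouse, with Benjamini-Hochberg adjustment over all tested genes and a threshold of 0.05. The fits were tested on simulated data.

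Arrays of a group are separate mice, and the 2 treatments share no mouse number, so the RCA comparison is unpaired. A mouse number joins the RCA and LCA of 1 animal.

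Members, gene lists and tests were chosen with earlier results of these data known. The rule named the 12 genes of largest change past the threshold without overlap in each direction, filled up by smallest p, 12 genes whatever their result, and the 5 of smallest p for each test of a difference. Predicted genes were not named. A further 48 genes were named with their values known. Alternatives changed the samples, block, scaling, filter, probe set, variance, covariate and threshold, left out each mouse, and, added later, used 3 marker means as covariates.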

Additional observations from a re-analysis of the deposited data

Results flagged for a closer look

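Group values were examined by Dixon's criterion. Some of the genes were named with their values known and some mark 1 cell type, so the share was not set against chance. The highest or lowest array stood apart from the other 4 of its group in 15 of 100 group values. Among genes of the comparison these were Zbtb16 in atorvastatin mouse 6 (8.70, the others 9.89 to 10.21), Fkbp5 in the same mouse (5.65, the others 7.44 to 7.90), Sox12 in atorvastatin mouse 7 (6.92, the others 5.89 to 6.03) and Tmem87a in atorvastatin mouse 10 (6.96, the others 7.33 to 7.49). Among the sterol and flow genes, Sqle stood apart in vehicle mouse 1 (4.55, the others 3.16 to 3.40). Klf4 was low in atorvastatin mouse 8 (11.19) and in vehicle mouse 1 (10.997), and Klk10 was low in atorvastatin mouse 8 (10.13, the others 10.50 to 10.61).

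Among markers of other cells, Alas2 stood apart in vehicle mouse 5 (7.69, the others 3.54 to 4.53). In atorvastatin mouse 9 the muscle genes Mylpf (9.52), Tnni2 (10.51) and Tnnc2 (11.64) stood apart together. Tnnc2 was also low in vehicle mouse 2 (4.53, the others 4.88 to 5.0). Ucp1 stood apart in atorvastatin mouse 7 (7.02), and so did the array median of that mouse (4.739, the others 4.674 to 4.691).

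Dnase1l3 and Mmp13 were picked out because the atorvastatin effect differed between arteries by a test of the difference itself, with RCA minus LCA effects of 1.93 and 1.80. Both lay under the array medians on every RCA array at 2 weeks, where a fall of the LCA size could not have been measured.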

How the results depend on the processing

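The count of 1 gene for the RCA at 2 weeks, Cyth3, was 1 with the title code as a block, arrays centred on their medians, no filter, either other filter, all probe sets or the Gapdh ratio as a covariate. It was 0 with only the 10 arrays, with the mouse as a replicate block over both arteries (correlation 0.0324), with quantile normalization once more, and with the erythroid, neutrophil or skeletal muscle mean as a covariate (chosen after seeing the data). It was 2 with a trended robust variance, which added Shroom3, and 4 with array weights, which added Shroom3, Coq7 and Npc1. Leaving out 1 mouse gave 0 to 2, and the 1 gene without vehicle mouse 3 was Igkj1. In the same fits the difference of Cyth3 stayed positive. The count for RCA minus LCA effects was 0 with only the 10 mice, 8 at an adjusted p under 0.1, and 1 to 12 leaving out 1 mouse. It was also 0 with the 75th percentile filter, which removed Dnase1l3 and Mmp13 before the test. The count for 2 weeks minus earlier was 0 in every alternative but the omission of vehicle mouse 5, for a range of 0 to 1. At an unadjusted p under 0.05, 56.5% of genes were higher with quantile normalization, 57.2% with no filter, 83.9% with the 75th percentile filter and 70.9% in the main setting.

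Signs turned for some genes. Under covariates these were Klf4 (-0.0357, neutrophil), Icam1 (0.0068 with the Gapdh ratio, 0.0108 erythroid, 0.0491 neutrophil, 0.0051 muscle), Cdh5 (0.0092, neutrophil), Apol7c (0.0494, erythroid) and Pecam1 (-0.0417 erythroid, -0.0117 muscle). Pecam1 was -0.0056 with array weights and Vwf -0.0153 with quantile normalization. With the marker mean of its own list as covariate, which contains the gene itself, Hba-a1 was -0.75 and Tnnc2 -0.28. Leaving out 1 mouse gave ranges that cross 0 for Acta2 (-0.0144 to 0.59), Adipoq (-0.52 to 1.42), Icam1 (-0.0641 to 0.0519), Klf4 (-0.0269 to 0.10), Nos3 (-0.0748 to 0.14), Pecam1 (-0.0381 to 0.0295), Rac1 (-0.0478 to 0.0008), Sqle (-0.21 to 0.13), Tnnc2 (-0.48 to 1.37), Tnni2 (-0.0385 to 1.56), Ucp1 (-0.20 to 0.73), Vcam1 (-0.0045 to 0.15) and Vwf (-0.0366 to 0.0284). The cause of these changes was not tested. No model included batch, 5 mice per group limit the precision, and these values carry no call of a probe set against background.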
